A study of Mus musculus with 3 samples.

Results

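Timd4-positive and Timd4-negative Lyve1 macrophages of the mouse stomach muscle are described here, compared within each library. A cell barcode was counted as a Lyve1 macrophage when it held at least 2000 unique molecular identifiers (UMIs, each marking 1 captured RNA molecule), at most 15% UMIs of mitochondrial genes, at least 10 UMIs of C1qa, C1qb and C1qc together and at least 2 UMIs of Lyve1. This gave 737 cells of 5735 barcodes. The 311 cells with at least 1 UMI of Timd4 form the Timd4-positive side, and the 426 cells with none form the Timd4-negative side. Cells were chosen by their counts of Timd4, Lyve1, the C1q genes and the mitochondrial genes, so their levels are given as a description with no test.

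The study took up which muscularis macrophages the stomach holds in health and diabetes. Its 3 libraries used here hold CD45+ cells (leukocytes carry CD45 on their surface) from collagenase-digested gastric muscle of female C57bl/6 mice. All are labelled NonDiabetic and carry no transgene or treatment in the labels, which give no age and do not say whether the libraries came from separate mice. The p-values below thus reflect how far the difference between the sides varies from library to library, and this spread may be technical.

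Timd4 encodes TIM-4, a receptor for phosphatidylserine, the lipid that dying cells show on their surface. Lyve1 encodes a hyaluronan receptor and Folr2 a folate receptor. In many mouse organs macrophages that carry these proteins renew themselves locally with little input from blood monocytes, whereas macrophages with Ccr2 or high major histocompatibility complex (MHC) class II are more often replaced by monocytes.

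The libraries held 881, 2839 and 2015 barcodes in replicates 1, 2 and 3, and 6777422 to 13336484 UMIs each. Timd4-positive cells numbered 24, 124 and 163 in replicates 1, 2 and 3, against 46, 209 and 171 Timd4-negative cells. The summed profiles held 145366, 1093518 and 1453384 UMIs on the Timd4-positive side, against 385131, 1928087 and 1461467 on the Timd4-negative side. Replicate 1 was thus the shallowest by far. A further 33 barcodes were shared between replicates 2 and 3, of which 30 differed over 20-fold in depth, and 3 of the cells studied carried a shared barcode.

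The 2 sides were of like depth. Timd4-positive cells had medians of 6002, 8201.5 and 8662 UMIs in replicates 1, 2 and 3, and Timd4-negative cells had 6657.5, 9263 and 8116. Their mitochondrial share was higher in each library, with medians of 4.75, 4.48 and 4.06% in Timd4-positive cells and 3.90, 3.63 and 3.50% in Timd4-negative cells. The part of this difference in the results was not tested. Both sides carried the 11 macrophage markers, which summed to 13000 to 16510 counts per 1000000 UMIs (CPM) in Timd4-positive profiles and 12400 to 15670 CPM in Timd4-negative profiles. Most of each sum is C1qa, C1qb and C1qc, which the gate required, so the sums follow in large part from the gate. In Timd4-positive profiles these averaged 4430, 2785 and 3561 CPM, and in Timd4-negative profiles 3980, 3041 and 3155 CPM.

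Timd4 was found in 34.3, 37.2 and 48.8% of the Lyve1 macrophages of replicates 1, 2 and 3, a mean of 40.1% ± 7.67 (SD, n = 3 libraries). The exact Clopper-Pearson 95% intervals ran from 23.3 to 46.6% in replicate 1, from 32.0 to 42.7% in replicate 2 and from 43.3 to 54.3% in replicate 3, and cover counting error only. With every cell thinned to 2000 UMIs the mean share was 19.4% ± 2.87. Thinning can only lower this share. Without thinning, the mean share was 44.9% ± 5.56 in cells with 2000 to under 5000 UMIs, 40.9% ± 6.18 from 5000 and 32.4% ± 18.6 from 10000 UMIs, so the mean was not higher in deeper cells. A cell of the Timd4-negative side is one in which no Timd4 RNA was captured, not one shown to lack it. Most positive cells held little Timd4: 127 had 1 UMI, 74 had 2, 62 had 3 to 4 and 48 had 5 or more, up to 10 in a cell.

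Timd4 went with Lyve1. Among macrophages with no Lyve1 UMI, 20 of 684 held Timd4, a mean of 3.42% ± 1.78 (SD, n = 3). Among Lyve1 macrophages the mean share climbed from 23.4% ± 4.96 in cells with 2 to 3 Lyve1 UMIs through 33.0% ± 1.09 and 37.9% ± 6.67 to 51.3% ± 12.8 in cells with 16 or more (SD, n = 3). The climb held at every step in replicate 3 only: replicate 1 was at 44.4 and 40.0% in the top classes, and replicate 2 at 33.9 and 31.1% in the middle ones, each with wide counting intervals. Lyve1 itself was at 1568, 2456 and 2941 CPM in Timd4-positive cells, against 1023, 1625 and 1685 CPM in Timd4-negative cells of replicates 1, 2 and 3. At the gate's edge, 3, 4 and 4 Timd4-positive cells and 5, 19 and 16 Timd4-negative cells held exactly 2 Lyve1 UMIs, and of 83 macrophages just outside it, with 1 Lyve1 UMI, 8 held Timd4. Of barcodes with at least 3 UMIs of lymphoid markers and at most 1 C1q UMI, 1 of 459 held a Timd4 UMI. Barcodes with any UMI of the dendritic markers Xcr1, Clec9a, Itgae, Ccr7, Flt3 or Zbtb46 were left out of this class. That C1q limit leaves out barcodes with much macrophage RNA, so the amount of free Timd4 RNA was not tested.

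**Figure D1:**
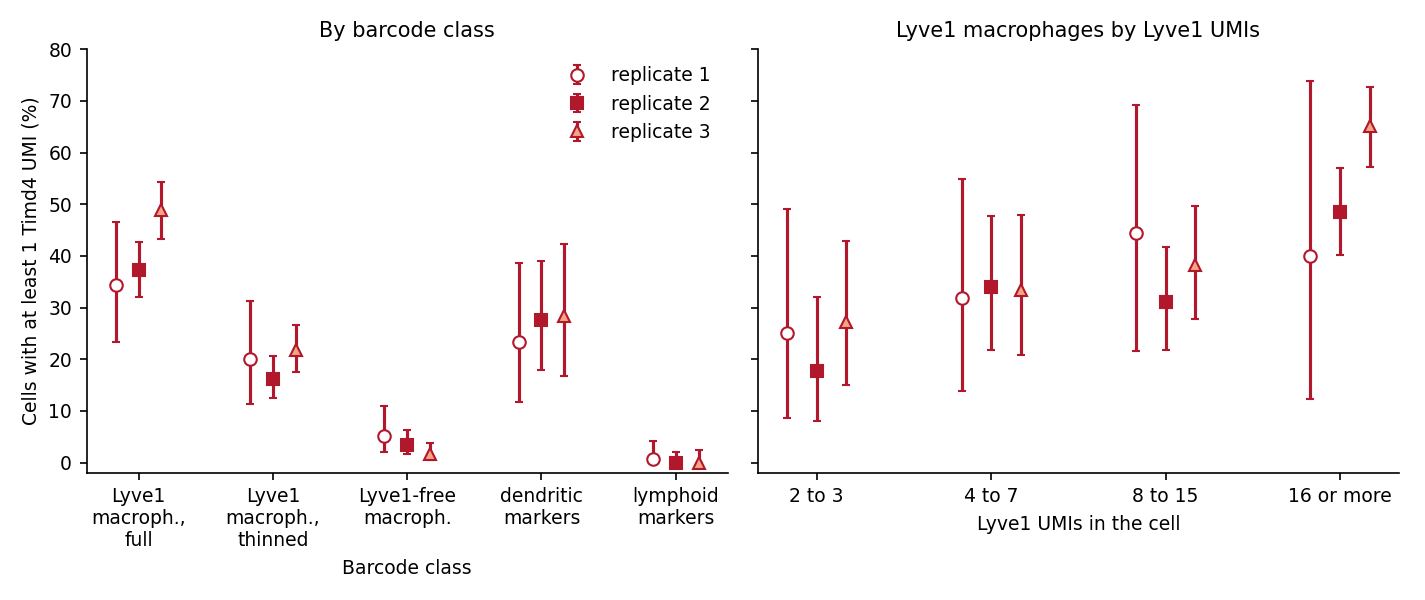
Share of barcodes with at least 1 Timd4 UMI (vertical axis, percent) by barcode class (left) and, for Lyve1 macrophages, by their Lyve1 UMIs (right). Points are replicates 1 to 3 and bars are exact 95% intervals of counting error. Lyve1 macrophages sit at 34.3 to 48.8%, macrophages with no Lyve1 UMI average 3.42%, and the mean share is lowest in cells with 2 to 3 Lyve1 UMIs.

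The question put to the profiles was which other genes differ between Lyve1 macrophages with and without Timd4. Timd4-positive cells had more RNA of Vsig4, Fcna and 4 Cd209 genes, and of the complement genes C4b, C6 and Cd55. They had less of the MHC class II chains and of the monocyte-related genes Ccr2, Cx3cr1 and Lyz1. Of the tested genes of apoptotic-cell uptake, the process TIM-4 serves, 1 was called, Pros1. With counts summed per library and side and edgeR's quasi-likelihood test with the library as a block, 90 of 8224 tested genes were called at an adjusted p under 0.05, which is 1.09%. Of these, 43 were higher in Timd4-positive cells (0.523% of tested genes) and 47 were lower (0.571%). For 55 of the 90 the 3 values of each side did not overlap, as was so for 8.63% of all tested genes.

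The calls rest on few profiles. Without replicate 3 no gene was called by edgeR (338 at an unadjusted p under 0.05), although 89 of the 89 called genes that could be tested had the same direction. Without replicates 1 and 2 the counts were 218 and 63. Without the library block no gene was called either (263 at an unadjusted p under 0.05), with 90 of 90 in the same direction, and DESeq2 with the block called 31 of the 8224.

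Genes known from tissue-resident macrophages gave more higher calls than any other of the 16 lists. Of 30 listed genes 28 could be tested, 10 were higher and none was lower, a called share of 35.7% beside 1.09% of all tested genes. The median log2 fold change was 0.53, beside -0.02 over all tested genes. In cells matched on Lyve1 and UMIs 4 of 28 were higher and the median was 0.21, and with all cells thinned to 2000 UMIs 2 of 26 were higher and the median was 0.23. Vsig4, the complement receptor CRIg, had 48.2, 76.8 and 99.1 CPM in Timd4-positive cells, against 12.98, 29.0 and 24.0 CPM in Timd4-negative cells. Every Timd4-positive value lay above every Timd4-negative one (log2 fold change 1.71 ± 0.21 SE, edgeR adjusted p = 0.000589). Fcna, a secreted ficolin of macrophages that binds microbial sugars, had 819, 798 and 1024 CPM in Timd4-positive cells, against 304, 379 and 408 CPM in Timd4-negative cells. The sides did not overlap (1.23 ± 0.14, adjusted p = 0.000463), and macrophages with no Lyve1 UMI averaged 10.3 CPM.

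Of the C-type lectins related to DC-SIGN, which bind sugars on microbes and host cells, Cd209b, Cd209d, Cd209f and Cd209g were all called. Cd209f had 447, 638 and 863 CPM in Timd4-positive cells, against 80.5, 318.5 and 454 CPM in Timd4-negative cells. Its sides overlapped between libraries by a narrow margin, but Timd4-positive cells were higher in each library (1.20 ± 0.20, edgeR adjusted p = 0.00534). Cd209b rose by 1.33 ± 0.16 (adjusted p = 0.000578), Cd209d by 1.15 ± 0.18 (0.00433) and Cd209g by 0.89 ± 0.18 (0.0225) on the log2 scale. The 4 genes lie in 1 cluster on chromosome 8 (GRCm38, between 3871824 and 4137707) and resemble each other, so reads may be split among them. Clec10a, a lectin for galactose-type sugars, rose by 0.99 ± 0.17 (adjusted p = 0.00814). Lectins of the other side were also seen: of 27 tested lectin and Fc receptor genes 6 were higher and 2 lower, these being Lgals3 (-0.98 ± 0.16, adjusted p = 0.00471) and the inhibitory receptor Clec12a (-0.70 ± 0.15, adjusted p = 0.0373). Called genes made up 29.6% of this list, beside 1.09% of all tested genes.

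Further resident genes that rose were Ednrb, the endothelin receptor type B, and Fcgrt, the neonatal Fc receptor that recycles antibody and albumin. Ednrb had 647, 728 and 740 CPM in Timd4-positive cells, against 335, 418.5 and 328 CPM in Timd4-negative cells. The sides were well apart (0.95 ± 0.15, edgeR adjusted p = 0.00313). Fcgrt had 660, 795 and 850 CPM in Timd4-positive cells and 330, 498 and 526 CPM in Timd4-negative cells (0.73 ± 0.14, adjusted p = 0.0154).

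Folr2, the third marker of these macrophages beside Timd4 and Lyve1, differed less. It had 413, 904 and 999.7 CPM in Timd4-positive cells, against 255, 622 and 500 CPM in Timd4-negative cells. It was higher in each library, though the sides overlapped (0.73 ± 0.15, edgeR adjusted p = 0.0278). Among cells matched on Lyve1 and on UMIs its log2 fold change was 0.32, and after thinning of all cells to 2000 UMIs it was 0.21, neither called. That thinning moved 170 positive cells to the Timd4-negative side, and with only the sums thinned and the sides kept Folr2 was at 0.59 and called. Resident genes that were not called include Cd163, Mrc1 and Stab1. Cd163, the haemoglobin receptor, had 970, 1400 and 1040 CPM in Timd4-positive cells and 436, 1100 and 899 CPM in Timd4-negative cells, higher in each library (0.48 ± 0.17, adjusted p = 0.314). Ltc4s (0.63), Ccl24 (0.63), Timp2 (0.60) and Ninj1 (0.59) had values of like size and were not called either. Mrc1, the mannose receptor, had 3928, 2884 and 3099 CPM in Timd4-positive cells and 3038, 3039 and 2933 CPM in Timd4-negative cells (0.09 ± 0.15, adjusted p = 0.931), and Stab1, a scavenger receptor, had a log2 fold change of 0.01 ± 0.14.

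Complement genes other than C1q rose in 4 of 15 tested cases and fell in none, with a median of 0.39. C4b, a component of the classical pathway, had 915, 714 and 947 CPM in Timd4-positive cells, against 293, 301 and 491 CPM in Timd4-negative cells. The sides did not overlap (1.21 ± 0.15, edgeR adjusted p = 0.000641). C6, a part of the membrane attack complex (1.34 ± 0.30, adjusted p = 0.0449), and Cd55, a membrane-bound inhibitor (1.17 ± 0.25, adjusted p = 0.0281), rose at low levels, with 94 and 125 UMIs in all Timd4-positive cells and 51 and 76 UMIs in all Timd4-negative cells. In matched cells C6 (0.91) and Cd55 (0.61) were not called. Vsig4 is the other gene called over all cells. The called genes thus include components, a receptor and an inhibitor.

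**Figure D2:**
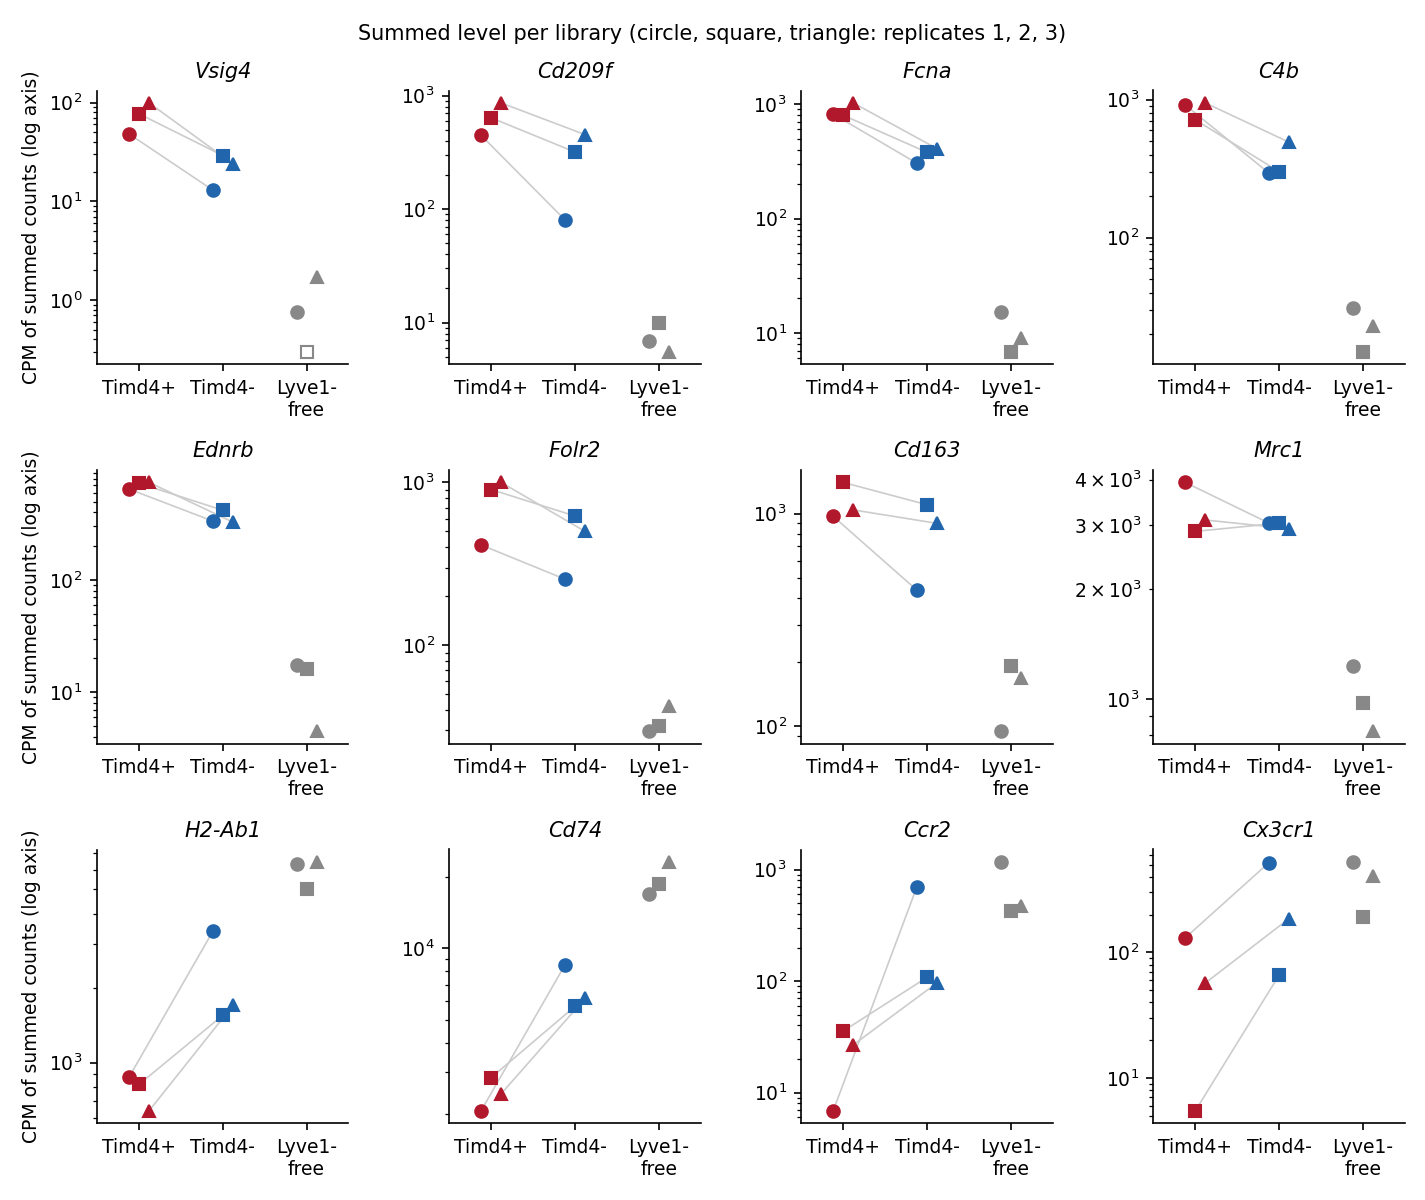
Summed level per library (CPM, log axis) of 12 genes in Timd4-positive Lyve1 macrophages, Timd4-negative Lyve1 macrophages and macrophages with no Lyve1 UMI; lines join the sides of 1 library, and the open symbol stands for a level of 0. Timd4-negative cells lie between the other classes for Vsig4, Fcna, C4b, H2-Ab1 and Cd74, while Mrc1 is near level between the sides.

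MHC class II genes were lower in Timd4-positive cells. Of 11 tested genes of presentation and co-stimulation 6 fell and none rose, with a median of -1.09, and all 6 encode class II chains or their loading partners. H2-Ab1 (the beta chain of I-A, chromosome 17, 34257689 to 34269419) had 874, 818 and 640 CPM in Timd4-positive cells, against 3388, 1554 and 1702 CPM in Timd4-negative cells. Every Timd4-positive value lay below every Timd4-negative one (-1.43 ± 0.19, edgeR adjusted p = 0.000754). Cd74, the invariant chain that guides class II to the endosome, had 2071, 2854 and 2442 CPM in Timd4-positive cells, against 8498, 5691 and 6147 CPM in Timd4-negative cells (-1.47 ± 0.19, adjusted p = 0.000919). Macrophages with no Lyve1 UMI had more of both, with means of 5949 CPM for H2-Ab1 and 19600 CPM for Cd74.

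The other called chains were H2-Eb1 (-1.70 ± 0.22, edgeR adjusted p = 0.000646), H2-Aa (-1.52 ± 0.21, 0.00125), H2-DMa (-1.22 ± 0.24, 0.0172) and H2-DMb1 (-1.04 ± 0.21, 0.0191), the last pair encoding the chaperone that loads peptide. Ciita, the master activator of class II genes, had a log2 fold change of -1.09 and was not called. The co-stimulatory genes Cd86 (-0.10), Cd80 (-0.08) and Cd40 (0.23) and the protease gene Ctss (0.05) were not called either.

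Class II promoters share a set of boxes, of which the Y box holds ATTGG, the reverse of the CCAAT element bound by the factor NF-Y. Because the 6 chains fell together, the promoter stretch is shown for 3 of them, from RefSeq on GRCm38.p6, 130 to 31 bases before the transcript start, 5′ to 3′ on the gene's strand, with ATTGG or its reverse complement CCAAT in capitals.
H2-Aa, chr17:34287854-34287953, minus strand: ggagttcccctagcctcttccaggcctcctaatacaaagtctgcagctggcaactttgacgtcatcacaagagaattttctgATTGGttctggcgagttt
H2-Eb1, chr17:34305737-34305836, plus strand: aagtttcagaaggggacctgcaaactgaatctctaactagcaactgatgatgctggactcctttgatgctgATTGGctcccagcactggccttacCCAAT
H2-DMb1, chr17:34153061-34153160, plus strand: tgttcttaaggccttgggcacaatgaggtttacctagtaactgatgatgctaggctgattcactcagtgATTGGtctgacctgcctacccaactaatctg
In these 3 the ATTGG starts 48, 59 and 61 bases before the transcript start. The motif was searched on both strands, and 19.6% of the 27025 promoters of the table hold it in the same window. The table held 4 of the 6 chains, the fourth being H2-DMa, with 2 entries, neither of which has the motif in this window. H2-Ab1 and Cd74 are named only. A match is a description of letters and says nothing of binding in these cells.

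Genes known from monocyte-derived macrophages were lower too: 6 of 14 tested fell, none rose, and the median was -1.13. Ccr2, the receptor by which monocytes leave the marrow and enter tissue, had 6.88, 35.7 and 26.8 CPM in Timd4-positive cells, against 704, 108 and 96.5 CPM in Timd4-negative cells. The sides did not overlap (-2.29 ± 0.34, edgeR adjusted p = 0.00232), and replicate 1 stood far above the other Timd4-negative profiles. Without replicate 1 the log2 fold change was -1.72 and still called, whereas DESeq2 did not call the gene. Cx3cr1, the fractalkine receptor, had 131, 5.49 and 57.1 CPM in Timd4-positive cells, against 519, 65.9 and 186 CPM in Timd4-negative cells. It varied widely between libraries but was lower in each one (-2.08 ± 0.22, adjusted p = 0.000307).

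Lyz1, a lysozyme gene, had 6.88, 6.40 and 10.3 CPM in Timd4-positive cells and 158, 43.6 and 52.7 CPM in Timd4-negative cells (-2.72 ± 0.29, edgeR adjusted p = 0.000307); it resembles Lyz2, whose log2 fold change was -0.41 and not called, and reads may be split between them. Tnip3, an NF-kB pathway inhibitor gene (-1.75 ± 0.24, adjusted p = 0.00101), Cd9, a tetraspanin gene (-1.53 ± 0.29, 0.0141), and Cd52, a leukocyte surface peptide gene (-1.21 ± 0.24, 0.0224), were the other calls. In matched cells Tnip3 was at -1.06 and called, whereas Cd9 (-1.58) and Cd52 (-0.29) were not called. Members with values above 0 were Ms4a4c (0.58), Ifitm6 (0.69) and S100a4 (0.06), none called.

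Of 25 tested chemokine and cytokine genes 3 fell and none rose, with a median of 0.00. Il1b, an inflammatory cytokine, had 199.5, 281 and 106 CPM in Timd4-positive cells, against 691, 751 and 127 CPM in Timd4-negative cells. The sides overlapped, and replicate 3 was nearly level (-1.13 ± 0.22, edgeR adjusted p = 0.0172; -0.48 and not called in matched cells). Il1rn, the interleukin 1 receptor antagonist, fell by 1.95 ± 0.38 (adjusted p = 0.0158) and Ccl12 by 1.08 ± 0.25 (0.0472) on the log2 scale. Ccl5, a chemokine for lymphocytes and monocytes, is not in this list and not in its counts. It was among the genes with the largest falls, with 0, 12.8 and 2.75 CPM in Timd4-positive cells and 44.1, 76.2 and 14.4 CPM in Timd4-negative cells (-2.63 ± 0.33, adjusted p = 0.000641). Ccl2, the main ligand of Ccr2, was abundant and level, with 3584, 4438 and 1416 CPM in Timd4-positive cells and 3627, 5079 and 1249 CPM in Timd4-negative cells (-0.05 ± 0.15, adjusted p = 0.970).

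Among 19 tested receptors and bridging molecules for apoptotic cells, 1 was called, a share of 5.26% beside 1.09% of all genes, and the median was 0.00. Pros1, protein S, which bridges phosphatidylserine to the receptor Mertk, had 234, 177 and 169 CPM in Timd4-positive cells, against 85.7, 93.4 and 106 CPM in Timd4-negative cells. The sides did not overlap (0.88 ± 0.15, edgeR adjusted p = 0.00698). The other bridging molecule Gas6 had 1307, 868 and 1056 CPM in Timd4-positive cells and 711, 715 and 858 CPM in Timd4-negative cells (0.43 ± 0.15, adjusted p = 0.326). Axl had 55.0, 61.3 and 59.9 CPM in Timd4-positive cells, against 143, 96.0 and 86.9 CPM in Timd4-negative cells, which do not overlap but missed the threshold (-0.70 ± 0.17, adjusted p = 0.0757). Mertk had 145, 122 and 109 CPM in Timd4-positive cells and 93.5, 99.6 and 96.5 CPM in Timd4-negative cells (0.27 ± 0.15, adjusted p = 0.635). Havcr2, a relative of Timd4, was too low to be tested, with 14 UMIs in all Timd4-positive cells and 25 in all Timd4-negative cells.

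Haem and iron genes gave 1 call in 17 tested, a share of 5.88% beside 1.09% of all tested genes. Tfrc, the transferrin receptor for iron uptake, rose by 0.79 ± 0.15 on the log2 scale (edgeR adjusted p = 0.0107). Hmox1, haem oxygenase 1 (0.13 ± 0.17), and Slc40a1, the iron exporter ferroportin (0.18 ± 0.19), were not called. Lipid genes gave 1 call in 14 (7.14%): Lpl, lipoprotein lipase, had 13.8, 7.32 and 4.13 CPM in Timd4-positive cells and 148, 20.8 and 19.2 CPM in Timd4-negative cells (-2.20 ± 0.37, adjusted p = 0.00615). Apoe was level (-0.05 ± 0.15). No gene was called among 21 lysosome genes (median 0.17) or 14 trophic factors (median 0.32), which include Bmp2, a factor for enteric neurons (0.35 ± 0.17, adjusted p = 0.570), and Igf1 (0.18 ± 0.14, 0.766). None was called among 29 macrophage transcription factors (median -0.02), such as Maf (0.15 ± 0.14) and Id3 (-0.28 ± 0.24). Nr1h3, an oxysterol-sensing receptor, was too low to be tested, with 28 UMIs in all Timd4-positive cells and 16 in all Timd4-negative cells. Of 27 growth factor and cytokine receptors Ednrb alone was called (3.7%), and Csf1r, the receptor for the main macrophage growth factor, was level (0.04 ± 0.14).

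The fitted log2 fold changes of the 24 tested genes of dividing cells were below 0, with a median of -1.04, whereas 47.7% of all tested genes were above 0. Of the 24, Mki67 (-1.26 ± 0.24, edgeR adjusted p = 0.0154) and Stmn1 (-1.0 ± 0.20, 0.0224) were called, a share of 8.33% beside 1.09% of all tested genes. Mki67 had 89.4, 30.2 and 23.4 CPM in Timd4-positive cells, against 90.9, 64.8 and 82.8 CPM in Timd4-negative cells, so replicate 1 was level. Stmn1 had 103, 54.9 and 72.3 CPM in Timd4-positive cells, against 67.5, 121 and 166 CPM in Timd4-negative cells, so it was higher in replicate 1. Mean CPM was higher on the Timd4-positive side for some of the 24, such as Top2a (65.3 CPM in Timd4-positive and 51.8 CPM in Timd4-negative cells) and Ube2c (45.2 CPM in Timd4-positive and 21.8 CPM in Timd4-negative cells). Without replicate 3, 5 of 20 tested genes were above 0. Few cells carry these counts: 8 of 311 Timd4-positive and 25 of 426 Timd4-negative cells had at least 3 UMIs of Mki67 and Top2a. In cells matched on Lyve1 and UMIs both signs turned, Mki67 to 0.35 and Stmn1 to 0.15, neither called, and the median of the 11 tested genes was 0.04. Interferon-stimulated genes had values above 0 in 19 of 19 tested cases, with a median of 0.20 and no call. Irf7 (0.95) and Ifi213 (0.93) led. In matched cells 12 of 16 were above 0 and 1 was called higher, as was 1 of 5 with sides and sums thinned. Immediate early genes, which dissociation can induce, gave no call in 25 (median -0.03), and Fos was level (0.06 ± 0.14).

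**Figure D3:**
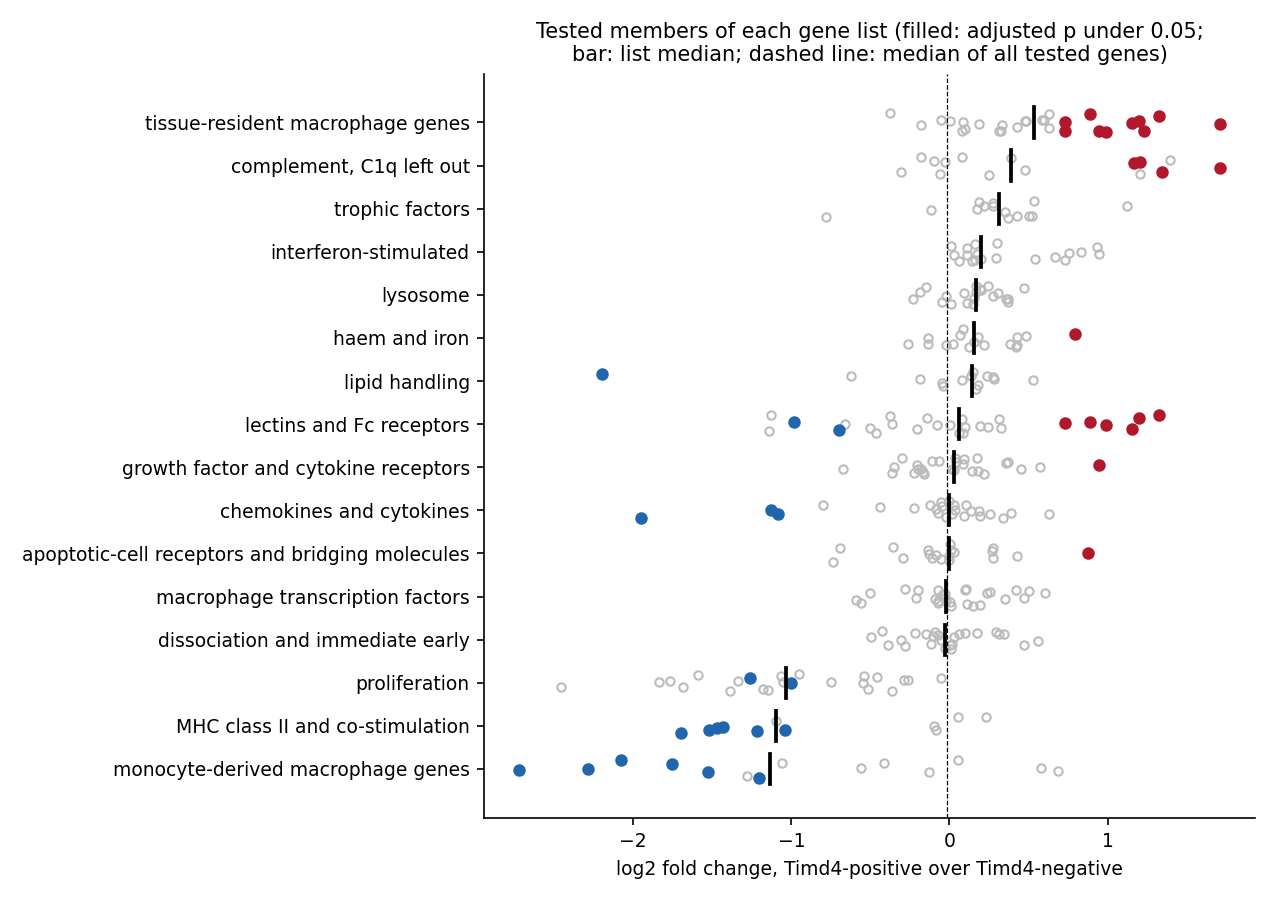
Log2 fold change, Timd4-positive over Timd4-negative, of every tested member of 16 gene lists (points; filled where the edgeR adjusted p was under 0.05), with list medians (bars) and the median of all tested genes (dashed line). The resident and complement lists lie highest, with medians of 0.53 and 0.39, and the proliferation, MHC class II and monocyte-derived lists lowest, with medians from -1.04 to -1.13.

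Outside the lists, the gene with the largest rise among those with the same direction in each library was Barx2, a homeobox transcription factor gene. It had 110, 16.5 and 8.95 CPM in Timd4-positive cells, against 2.60, 2.08 and 0.684 CPM in Timd4-negative cells. The sides did not overlap (3.69 ± 0.55, edgeR adjusted p = 0.00248), although counts were few: 47 UMIs in 30 of 311 Timd4-positive cells, and 6 UMIs in 6 of 426 Timd4-negative cells. Among macrophages with no Lyve1 UMI 2 of 684 held a Barx2 UMI, and among barcodes with at most 1 C1q UMI 14 of 971 did. Barx2 was too low to be tested after thinning or matching.

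Other genes of low level rose in each library: Adgrg1, an adhesion receptor gene (1.73 ± 0.33, edgeR adjusted p = 0.0140), Sema6a, a semaphorin gene (1.66 ± 0.34, 0.0268), Colec12, a scavenger receptor with a collectin head (1.48 ± 0.17, 0.000407), and Coro2b, Dnm1, Tcim and Cyr61 (1.34 to 1.62). Colec12 had 75.7, 158 and 142 CPM in Timd4-positive cells, against 44.1, 50.8 and 50.6 CPM in Timd4-negative cells. Further large falls were in Apold1 (-2.88 ± 0.44, adjusted p = 0.00299), the G protein subunit gene Gngt2 (-2.68 ± 0.61, 0.0484), the phosphatase gene Dusp2 (-2.24 ± 0.37, 0.00615), Bcl2a1d (-2.02 ± 0.35, 0.00814) and Atp8b4 (-1.94 ± 0.39, 0.0225). Bcl2a1d has near-identical copies, among which reads may be split.

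A pair of calls rests on 1 barcode. Mgp and Dcn, both matrix genes of fibroblasts, were called higher, but 1 Timd4-positive cell of replicate 2 held 400 of the 413 Dcn UMIs and 83 of the 105 Mgp UMIs of its profile. Without that barcode Mgp had a log2 fold change of 0.55 and was not called. The 9 fibroblast markers summed to 282, 909 and 165 CPM in Timd4-positive cells, against 369, 158 and 166 CPM in Timd4-negative cells. Without the barcode 91 genes were called in all.

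RNA of other cell types was present on both sides. The 7 smooth muscle markers summed to 138, 262 and 292 CPM in Timd4-positive cells, against 46.7, 157 and 197 CPM in Timd4-negative cells, and the 7 epithelial markers to 34.4, 55.8 and 90.1 CPM in Timd4-positive cells, against 10.4, 27.0 and 46.5 CPM in Timd4-negative cells. Both were higher on the Timd4-positive side of each library with no marker called, and their part in the results was not tested. A reduced set of other cells' markers was also counted, each found in at most 10% of Lyve1 macrophages on average over libraries. It held no epithelial marker, and of the smooth muscle markers only Cnn1. Cells with at least 2 UMIs of this set numbered 4, 34 and 26 Timd4-positive and 11, 42 and 29 Timd4-negative in replicates 1 to 3. Without these cells 53 genes were called, 49 of them among the 90.

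Macrophages of some other places also carry Timd4. The 14 markers of large peritoneal macrophages summed to 25.5 to 42.1 CPM in Timd4-positive cells and 49.3 to 84.0 CPM in Timd4-negative cells, with Selp and Alox15 at 0 on both. The 8 Kupffer cell markers summed to 103, 191 and 225 CPM in Timd4-positive cells, against 75.3, 111 and 133 CPM in Timd4-negative cells. They were higher on the Timd4-positive side of each library, and include Vsig4, described above, while Clec4f, the defining gene of these liver cells, was at 0 on both sides. Lyve1 also marks lymphatic endothelium, but the 6 markers of that cell type summed to 6.88 to 11.0 CPM in Timd4-positive cells and 2.05 to 17.1 CPM in Timd4-negative cells, with Flt4 and Reln at 0 on both.

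Because Timd4-positive cells had more Lyve1, they were also paired with Timd4-negative cells of their library with close Lyve1 and total UMIs. This alternative was chosen after seeing the data. Cells without a close partner were left out, which kept 17 of 24, 108 of 124 and 110 of 163 Timd4-positive cells in replicates 1, 2 and 3. As many Timd4-negative cells were kept. The part of the lost cells in the smaller count of calls was not tested. In these cells 25 of 7321 tested genes were called (0.341%), 12 higher (0.164%) and 13 lower (0.178%), and 21 of them were among the 90. Of the 85 called genes that could be tested, 82 had the same direction, the exceptions being Dcn, Mki67 and Stmn1. Effects were smaller: the log2 fold change of H2-Ab1 was -0.72, that of Cd74 -0.79, that of Ccr2 -1.49, that of Fcna 0.65 and that of C4b 0.61, all called. Cd209b was the exception among these, at 1.46 and called. Vsig4 (0.94), Cd209d (0.68), Ednrb (0.40), Fcgrt (0.38) and Cd209g (0.36) were not called, as was the case for Folr2.

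**Figure D4:**
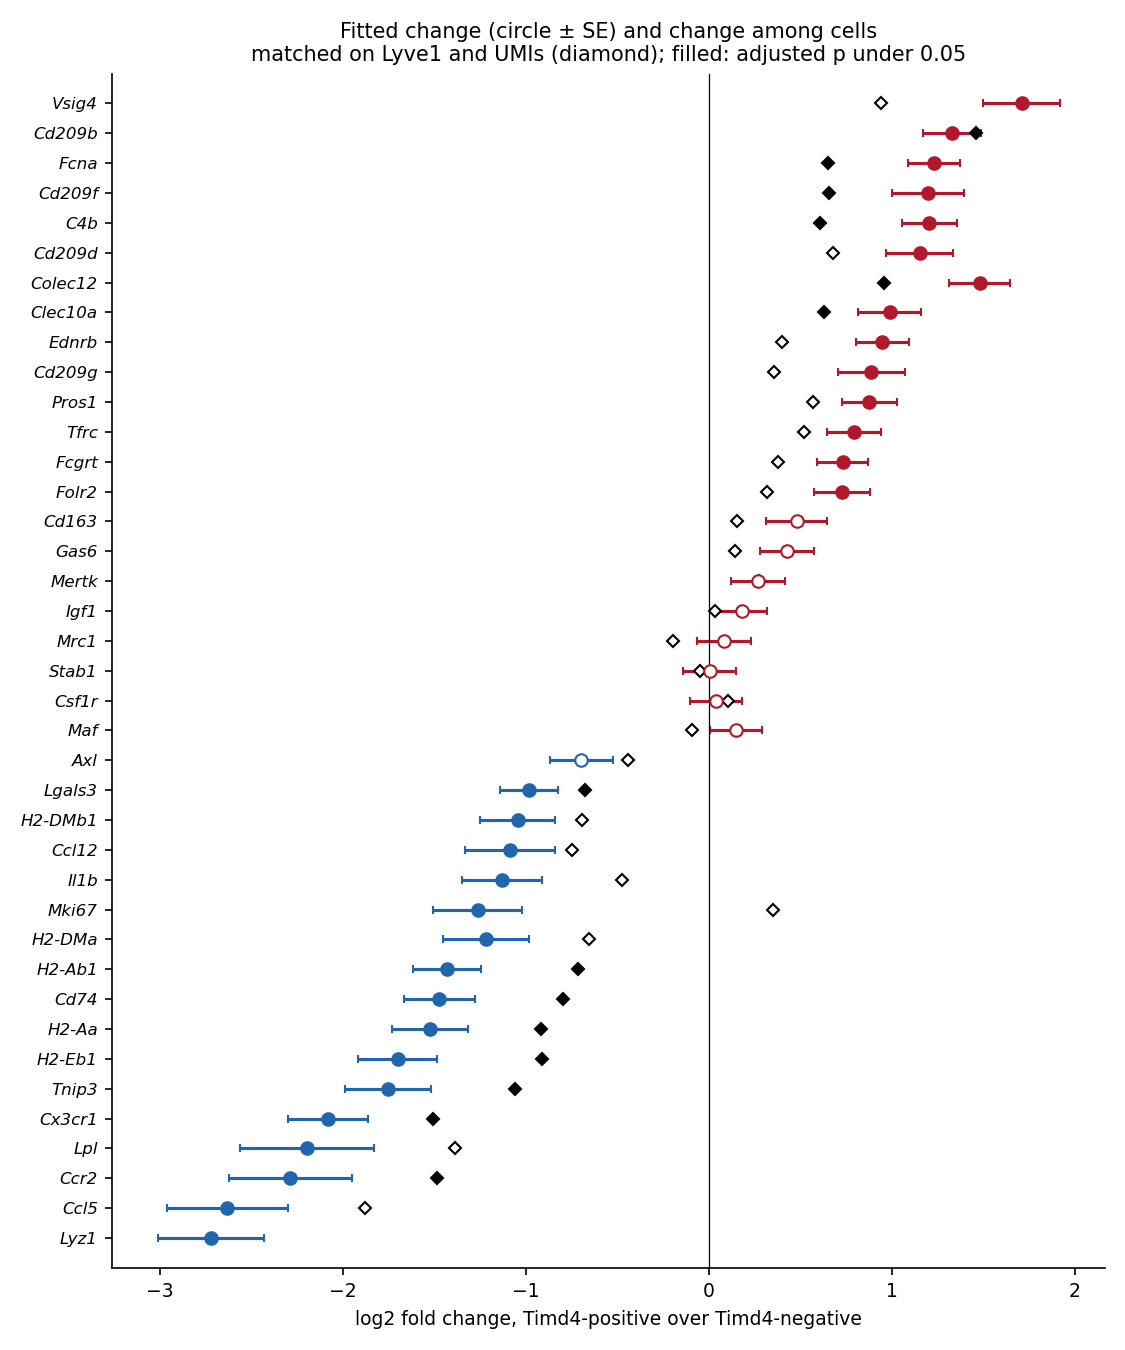
Log2 fold change of named genes, Timd4-positive over Timd4-negative, over all cells (circles, bars ± SE) and in cells matched on Lyve1 and UMIs (diamonds; not shown where the gene was too low); filled symbols passed an edgeR adjusted p of 0.05. Most diamonds lie nearer to 0 than their circles, and Mki67 crosses it, at -1.26 in all cells and 0.35 in matched cells.

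With cells thinned to 2000 UMIs before the sides were formed, 14, 54 and 73 cells were Timd4-positive and 56, 279 and 261 Timd4-negative in replicates 1, 2 and 3, so that 170 of the 311 positive cells fell on the Timd4-negative side. Of 2143 genes that could be tested 10 were called (0.467%), 6 higher (0.28%) and 4 lower (0.187%), 8 of them among the 90, and 46 of the 48 called genes that could be tested had the same direction. The 8 were C4b, Cd209d, Fcna, Emp1, Cd74, H2-Aa, H2-Ab1 and H2-Eb1. The log2 fold changes were 0.78 for Fcna, 0.74 for C4b, -0.79 for H2-Ab1 and -0.93 for Cd74.

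At that equal depth the genes whose detection was most like that of Timd4 were sought among 3910 genes by the mean log2 odds ratio of being found in the same cell, over 3 libraries. Among the 5 highest were Arhgap23 (1.77 ± 0.46, SD, n = 3), Cd209b (1.72 ± 0.97), Lamp2 (1.66 ± 0.60) and Tppp (1.65 ± 0.39). Cd209b was found in 21.4, 22.2 and 20.5% of Timd4-positive thinned cells, against 3.57, 14.3 and 7.66% of Timd4-negative thinned cells. All 4 were found more often in Timd4-positive cells of each library, and the values are a description with no test. In the main test Arhgap23 (log2 fold change 0.66, edgeR adjusted p = 0.326) and Lamp2 (0.37, 0.395) were not called.

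Levels followed the number of Timd4 UMIs for some genes only. Folr2 averaged 459 CPM in cells with no Timd4 UMI, 635 in cells with 1 and 855 in cells with 2 or more, and climbed in that order in each library. Cd209f did so as well, at 284, 493 and 744 CPM. H2-Ab1 averaged 2215, 712 and 814 CPM in the same classes, so that cells with 1 and with more Timd4 UMIs were alike within their SDs of 204 and 325 CPM (n = 3). Ccr2 averaged 303, 46.8 and 8.96 CPM, with the classes in falling order in 2 of 3 libraries. Depth differs between these classes, and no test was made.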

How the data were processed

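Droplet libraries of the 3' end of transcripts were counted with Cell Ranger 3.1 on the build mm10 according to the submitters' processing notes. The file headers name version 3.1.0 in replicates 2 and 3 but 3.0.0 in replicate 1. The authors deposited raw UMI counts for 31053 genes per barcode, not normalised; their annotation release is not given in the sources used here. Gate and sides were as stated in the report, and no doublet removal preceded the main test.

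Counts were summed per library and side (6 profiles), filtered with filterByExpr, scaled with TMM and tested with edgeR 4.0.16 (glmQLFit and glmQLFTest, two-sided, Benjamini-Hochberg over all tested genes). Each SE is the fitted log2 value over the square root of its F statistic. CPM are sums per 1000000 UMIs of the profile. The library was a block because both sides come from the same library. Deviations of a library's sides from their side means correlated at 0.252 to 0.319, against -0.233 to 0.000766 between libraries. Centring on the side means itself lowers the values between libraries, so this contrast cannot decide on the block. Thinning drew UMIs without replacement (seed 13). Matching paired cells within 0.25 natural log units. The test was checked on simulated counts. Gene coordinates are from GENCODE M21 by Ensembl identifier.

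Some genes are not reported here, and list counts leave them out. Members, gene lists and tests were chosen with earlier results of these data known. Named genes are the 12 largest rises and falls among called genes with 1 direction in 3 libraries and at least 30 UMIs on the higher side, called list genes, fixed key genes and the 5 genes most like Timd4; Dcn and uncalled list members with a value were named after their values were seen. Alternatives varied depth, each gate limit, doublets (scrublet), other cells' markers, scaling, filter, tool, block and library; those on shared barcodes, matching on Lyve1 and the fibroblast-marker barcode were chosen after seeing the data.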

Additional observations from a re-analysis of the deposited data

Results flagged for a closer look

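Timd4 RNA also appeared outside macrophages. In barcodes with at least 3 UMIs of dendritic markers and at most 1 C1q UMI, which enter no comparison above, 46 of 172 held a Timd4 UMI, a mean of 26.4% ± 2.74 (SD, n = 3 libraries), against 40.1% ± 7.67 in Lyve1 macrophages and 1 of 459 lymphoid-marker barcodes. With all cells thinned to 2000 UMIs the mean was 9.27% ± 3.18 in dendritic-marker barcodes and 19.4% ± 2.87 in Lyve1 macrophages. No lymphoid-marker barcode held a Timd4 UMI after thinning, with exact 95% upper limits of 2.78, 2.04 and 2.45% in replicates 1, 2 and 3. By definition lymphoid-marker barcodes held no UMI of these dendritic markers, whereas dendritic-marker barcodes could hold lymphoid markers.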

How the results depend on the processing

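Against 90 called genes, 10 were called with sides and sums thinned, 5 with the gate thinned too, 51 with sums thinned, 41 at 5000 UMIs or more, 159 at Lyve1 of at least 1, 53 without other cells' markers, 25 matched on Lyve1 and UMIs, 31 by DESeq2, 220 without the filter on low counts and 0 without the replicate block. Leaving out 1 replicate gave 0 to 218. Settings that kept the count within 1.5 times were UMI-matched negatives (84), Timd4 of at least 2 (125), Lyve1 of at least 4 (66), C1q of at least 30 (74), the 10% mitochondrial limit (68), doublets out (131), shared barcodes out (85), the fibroblast-marker barcode out (91) and RLE scaling (96). The Timd4 share moved from 40.1% to 19.4% when thinned and to 22.3% with a thinned gate. It was 35.8 to 43.0% with 1 replicate left out. At Timd4 of at least 2 it was 28.5%, but of a smaller total, since cells with 1 Timd4 UMI were left out.

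Among the 90 called genes, those that changed sign were Stmn1, Mki67 and Dcn in matched cells, Selenbp1 and Tslp with sides and sums thinned, Selenbp1, Clec12a, Rcn3 and Klc1 with the gate thinned too, Gpr132 with sums thinned and Dcn without replicate 2. The cause was not tested. Named genes that changed sign follow. With cells matched on Lyve1 and UMIs they were Stmn1 0.15, Mki67 0.35, Mrc1 -0.197, Stab1 -0.0488, Hmox1 -0.0106, Maf -0.0914, Id3 0.0909 and Fos -0.0324. With sides and sums thinned they were Stab1 -0.29, Hmox1 -0.102, Maf -0.154 and Fos -0.0542, and with the gate thinned too Clec12a 0.17, Mrc1 -0.0495, Stab1 -0.355, Hmox1 -0.132, Maf -0.202, Csf1r -0.0549 and Fos -0.0438. With sums thinned they were Stab1 -0.109, Hmox1 -0.0443, Slc40a1 -0.187, Maf -0.0335 and Csf1r -0.00931. Without other cells' markers they were Stab1 -0.0589, Slc40a1 -0.442, Csf1r -0.014, Ccl2 0.00547 and Fos -0.098. UMI-matched negatives gave Mrc1 -0.0909 and Hmox1 -0.069, Lyve1 of at least 4 Mrc1 -0.0542, Lyve1 of at least 1 Ccl2 0.0715 and Fos -0.0351, and 5000 UMIs Ccl2 0.00357. Stab1 was -0.00151 without shared barcodes, -0.0139 without the filter and -0.000246 without the block. With 1 replicate left out, Mrc1 ranged from -0.0021 to 0.183, Stab1 from -0.0786 to 0.092, Hmox1 from -0.134 to 0.333, Apoe from -0.122 to 0.0231 and Ccl2 from -0.147 to 0.0439.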

Other observations

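Some called genes belonged to no list and were chosen here after their values were seen. Higher in Timd4-positive cells were Fgfr1, a fibroblast growth factor receptor gene (log2 fold change 1.0 ± 0.14 SE, edgeR adjusted p = 0.00128; mean 248 CPM in Timd4-positive and 118 CPM in Timd4-negative cells), and Npr1, a natriuretic peptide receptor gene (1.16 ± 0.26, 0.0419), neither of them called in cells matched on Lyve1 and UMIs. Lower were Ptgs2, the inducible prostaglandin synthase gene (-1.76 ± 0.24, 0.00127; mean 28.2 CPM in Timd4-positive and 70.8 CPM in Timd4-negative cells), and Mpeg1, the perforin-2 gene (-1.32 ± 0.14, 0.000307; mean 109.8 CPM in Timd4-positive and 267 CPM in Timd4-negative cells), both called in matched cells too.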
